A study of Mus musculus with 8 samples.

Results

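The 43 genes described here encode the enzymes of cholesterol and fatty acid synthesis, the sensors that set their transcription, and the proteins that export, store or move cholesterol. They were named from the pathway, with earlier results of these libraries known, and were looked up by gene symbol in the counts of WT and TRIM28 KO Th17 cells. Of the 43 genes, 41 are listed in at least 1 of the 2 libraries, among 13704 genes listed in all, and 40 had at least 10 reads over both libraries, the minimum for a test. *Nr1h2* and *Msmo1* are listed in neither library under these symbols, and *Nr1h3* had 0 reads in WT and 1 read in KO.

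Both libraries came from C57BL/6 mice. Naive CD4+ T cells of wild type mice and of TRIM28fl/flxCD4cre mice, in which a Cre driven by the *Cd4* promoter deletes floxed *Trim28* in T cells, were kept 3 days in TGF-β (0.5 ng/ml) plus IL-6 (20 ng/ml), then given anti-CD3 again. Only mRNA was sequenced, in 1 library per genotype, so no difference given here has a replicate check. Whether the WT mice carried the Cre or the floxed alleles, whether mice were pooled, and the age of the mice whose cells were sequenced are not given in the sources used here.

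Cholesterol is built from acetyl-CoA through the mevalonate pathway, which ends in farnesyl diphosphate, and then through squalene and lanosterol. When sterols in the endoplasmic reticulum are low, the escort protein SCAP carries the SREBP precursors to the Golgi, where they are cut and released to activate the genes of sterol and fatty acid synthesis, while the INSIG proteins hold SCAP back when sterols are high. The liver X receptors LXR sense oxysterols and activate cholesterol export. Activated T cells make sterols and fatty acids as they grow.

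The 250 bases before an annotated start of 6 genes are printed for the members that the results turn on, the mevalonate genes *Hmgcs1*, *Mvk* and *Idi1*, the sterol genes *Cyp51* and *Hsd17b7*, which differed in opposite directions, and *Pltp*. The sequences are from RefSeq on GRCm38.p6 and run 5′ to 3′ on the strand of the gene. Capitals mark the CCAAT box (CCAAT, or ATTGG where it lies on the other strand) and, in *Hmgcs1*, the core of a sterol regulatory element, the site that SREBP proteins bind.
Hmgcs1, chr13:119690101-119690350, plus strand: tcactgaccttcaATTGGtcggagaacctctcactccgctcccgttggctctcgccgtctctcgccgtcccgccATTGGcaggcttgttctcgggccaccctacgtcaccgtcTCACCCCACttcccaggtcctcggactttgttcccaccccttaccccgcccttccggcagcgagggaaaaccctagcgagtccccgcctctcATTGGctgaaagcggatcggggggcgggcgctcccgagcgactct
Mvk, chr5:114444019-114444268, plus strand: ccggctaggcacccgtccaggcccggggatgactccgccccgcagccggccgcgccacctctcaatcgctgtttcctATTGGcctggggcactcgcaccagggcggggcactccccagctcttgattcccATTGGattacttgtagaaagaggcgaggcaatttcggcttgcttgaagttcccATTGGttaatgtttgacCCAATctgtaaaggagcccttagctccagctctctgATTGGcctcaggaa
Idi1, chr13:8885356-8885605, plus strand: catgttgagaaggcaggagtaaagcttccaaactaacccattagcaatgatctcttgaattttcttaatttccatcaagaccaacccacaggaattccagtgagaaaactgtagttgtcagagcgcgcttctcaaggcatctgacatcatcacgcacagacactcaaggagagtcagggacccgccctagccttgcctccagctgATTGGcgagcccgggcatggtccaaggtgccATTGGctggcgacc
Cyp51, chr5:4104698-4104947, minus strand: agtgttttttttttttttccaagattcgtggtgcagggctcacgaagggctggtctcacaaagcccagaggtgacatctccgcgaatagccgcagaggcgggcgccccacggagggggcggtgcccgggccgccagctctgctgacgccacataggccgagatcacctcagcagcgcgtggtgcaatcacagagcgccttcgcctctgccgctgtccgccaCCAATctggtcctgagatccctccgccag
Hsd17b7, chr1:169969206-169969455, minus strand: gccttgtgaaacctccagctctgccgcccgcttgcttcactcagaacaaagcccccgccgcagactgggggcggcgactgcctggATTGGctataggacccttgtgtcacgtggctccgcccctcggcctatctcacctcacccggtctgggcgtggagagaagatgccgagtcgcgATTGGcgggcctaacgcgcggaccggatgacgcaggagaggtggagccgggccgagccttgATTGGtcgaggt
Pltp, chr2:164857709-164857958, minus strand: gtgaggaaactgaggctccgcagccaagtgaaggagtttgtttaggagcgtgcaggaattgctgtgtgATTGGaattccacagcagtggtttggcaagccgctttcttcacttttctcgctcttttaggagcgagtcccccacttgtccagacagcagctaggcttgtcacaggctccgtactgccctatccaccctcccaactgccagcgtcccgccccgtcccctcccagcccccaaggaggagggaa

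A RefSeq promoter entry was found for 35 of the 43 genes. Those without an entry are *Fdps*, *Fdft1*, *Sqle*, *Scd1*, *Scd2*, *Fads1*, *Abcg1* and *Stard4*. Windows from 250 bases before to 50 bases after each start were searched on both strands. A CCAAT box was found in 26 of the 35 genes (74.3%), against 41.1% of all 27025 genes with an entry and 42.5% of those with at least 10 reads here. It was present in 9 of 9 genes from squalene to cholesterol, in 5 of 6 mevalonate genes, in 4 of 5 SREBP regulators, in 5 of 8 fatty acid genes and in 3 of 7 genes of the LXR, export and storage group. Of the printed sequences, *Mvk* holds 5 CCAAT boxes, *Hmgcs1* and *Hsd17b7* hold 3 each, *Idi1* holds 2, and *Cyp51* and *Pltp* hold 1 each, so genes that were higher and a gene that was lower in the KO library share this feature. The letters TCACNCCAC, used for the sterol regulatory element core, were in 1 of the 35 genes, *Hmgcs1* (2.86%), and in 1.44% of all genes. The LXR direct repeat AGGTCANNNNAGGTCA was in none of the 35 genes and in 5 of 32851 windows in all. A match is a description of these letters in this window and does not show a bound site, and a missing match says nothing of the factor.

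The libraries held 6650066 (WT) and 6185108 (KO) uniquely assigned reads, over 13078 and 12754 genes, and absence from 1 of the tables was read as 0 reads there. *Trim28* itself had 4485 reads in WT and 180 in KO, in the direction of the label. The 10 T cell markers examined summed to 7075 CPM (reads per 1000000 reads of the library) in WT and 6390 CPM in KO. Of the Th17 markers, *Il17a* had 2226 reads in WT and 381 in KO and *Il17f* had 3143 and 345, and *Rora* and *Il23r* were also lower in KO. Of 15 macrophage markers, 5 had any read, with 29 reads in WT and 27 in KO in all, and *Lyz2*, *Csf1r*, *Adgre1*, *C1qa* and *Marco* are listed in neither library. The 6 B cell markers summed to 14.1 CPM in WT and 7.60 CPM in KO, the 6 dendritic cell markers to 3.61 and 4.69 CPM, and the 4 CD8 and NK cell markers to 7.97 and 4.69 CPM. The part of these differences in the results was not tested, and in bulk RNA fewer cells of a type and less RNA per cell cannot be told apart.

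Genes of cholesterol synthesis had more reads in the KO library than in the WT library, most clearly in the mevalonate pathway, while the genes of fatty acid synthesis held members that were higher and very abundant members that were slightly lower before correction for transcript length. The calling rule asked for at least 2-fold and an adjusted p under 0.05, from an exact binomial test of each gene's reads against the share that the KO library has of all reads (Benjamini-Hochberg over 10881 genes). By this rule 4 of the 40 tested genes were higher in KO (10.0%), *Mvk*, *Fdps*, *Pltp* and *Cd5l*, against 2.57% of all genes tested, and 0 were lower, against 5.53%. The rise of *Pltp* and *Cd5l* was known when the members were chosen, and without them 2 genes were called higher. The test compares the 2 libraries, not the genotypes.

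At a change of at least 1.5-fold, 11 of the 40 were higher (27.5%, against 7.02% of all genes) and 1, *Hsd17b7*, was lower (against 11.5% of all genes). The genes added above this smaller fold were *Pmvk*, *Idi1*, *Tm7sf2*, *Scd1*, *Elovl6*, *Fads1* and *Fads2*. At an adjusted p under 0.05 and any size, which depends on how many reads a gene has, 23 of the 40 were higher (57.5%, against 21.4% of all genes) and 4 were lower (10.0%, against 22.4%). In the sentences that follow, rose and fell mean this last rule. The median log2 fold change (KO over WT) of the 40 genes was 0.33, with a range from -0.88 to 2.94, against -0.02 over all genes tested. Without regard to a test, 28 of the 40 had a value above 0 (70.0%, against 48.6% of all genes) and 12 below (30.0%, against 51.4%). Summed over the members, the level was 4862 CPM in WT and 5086 CPM in KO, a log2 ratio of 0.07 (95% interval 0.04 to 0.09), because the few members with the most reads moved little or down.

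**Figure D1:**
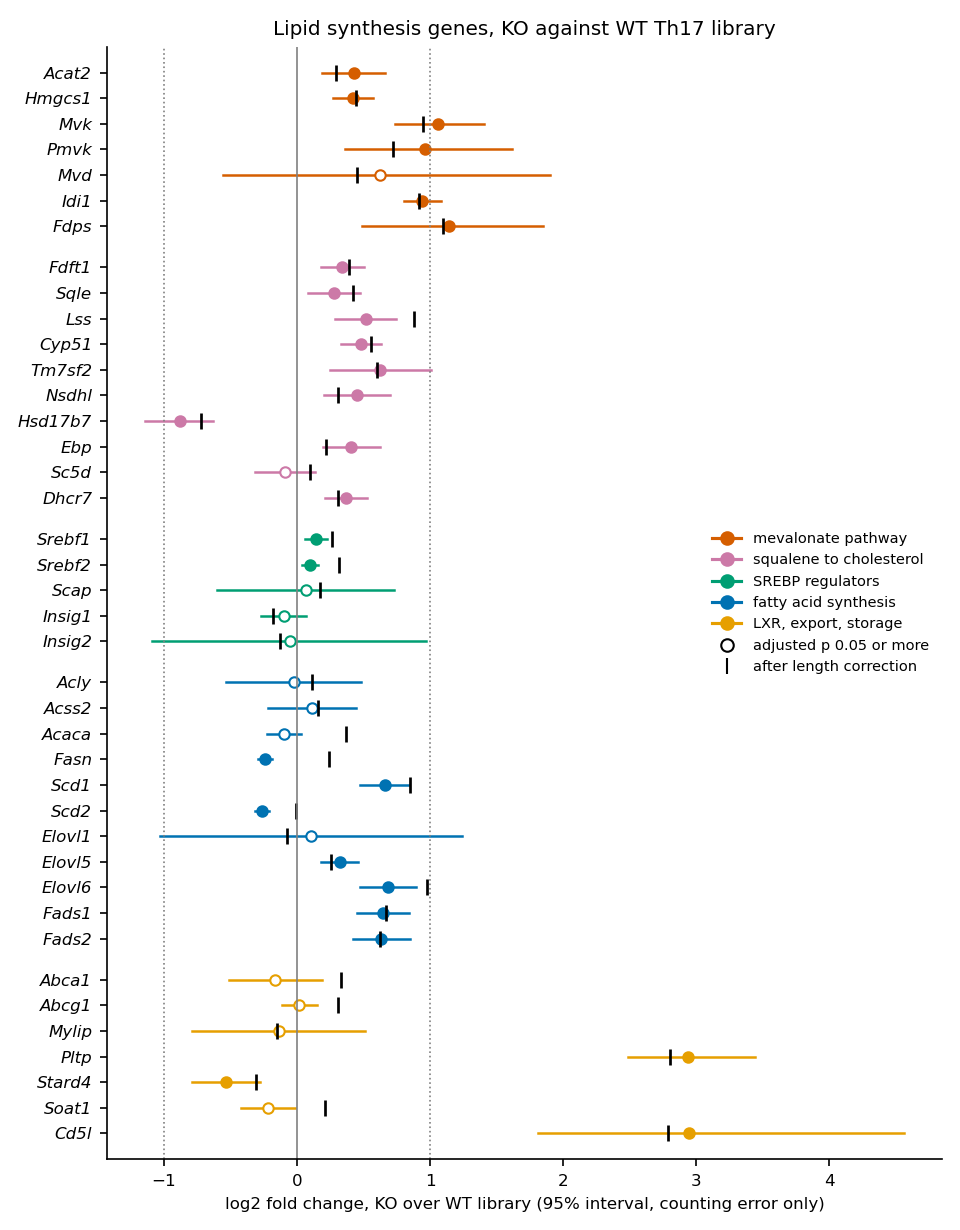
Log2 fold change (KO over WT library) of the 40 tested genes by role, with exact 95% intervals that cover counting error only. Filled points have an adjusted p under 0.05, the short black ticks give the value after correction for transcript length and the dotted lines mark 2-fold. The mevalonate genes all lie above 0, with a median of 0.94.

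The genes of the mevalonate pathway rose together, with 6 of 7 higher (85.7%, against 21.4% of all genes) and none lower (against 22.4%). The median log2 fold change was 0.94. The summed level went from 272 CPM in WT to 444 CPM in KO (log2 ratio 0.71, 95% interval from 0.62 to 0.79). *Acat2*, which joins a pair of acetyl-CoA molecules, had 264 reads in WT and 330 in KO, and *Hmgcs1*, the next enzyme, had 686 and 854. Their log2 fold changes were close to each other, 0.43 and 0.42.

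*Mvk*, the kinase that phosphorylates mevalonate, had 115 reads in WT (17.3 CPM) and 224 in KO (36.2 CPM). Its log2 fold change was 1.06 (95% interval 0.74 to 1.40), just past the 2-fold line, with an adjusted p of 4.02e-10 in the exact binomial test. *Pmvk*, the second kinase of the pathway, had 35 and 64 reads, giving a log2 fold change of 0.97, just short of the line, with a wide interval from 0.36 to 1.61. These kinases act one after the other, and their intervals overlap. *Mvd*, which decarboxylates the product, had only 11 reads in WT and 16 in KO, and its interval from -0.55 to 1.90 could show neither a rise nor a fall at this depth.

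*Idi1*, the isomerase that makes dimethylallyl diphosphate, was the most abundant gene of the pathway in the KO library, with 669 reads in WT (101 CPM) and 1196 in KO (193 CPM). Its log2 fold change of 0.94 had a narrow interval, from 0.81 to 1.08, and an adjusted p of 7.86e-42 in the exact binomial test. *Fdps*, which makes farnesyl diphosphate, had 29 and 60 reads, 4.36 and 9.70 CPM, a log2 fold change of 1.14 (95% interval 0.49 to 1.85). *Fdps* is thus among the called genes and *Idi1* is not, although *Idi1* rests on far more reads and the interval of *Fdps* holds that of *Idi1*. In GENCODE M21, 1124 exon bases of *Fdps* overlap *Gm43738* on the same strand. *Gm43738* is listed in neither library, and a gap in the authors' annotation cannot be told from no reads.

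*Ggps1*, which turns farnesyl into geranylgeranyl diphosphate at the branch away from sterols, is no member and was examined beside the 43 genes. It had 184 reads in WT and 143 in KO, and its log2 fold change of -0.26 did not pass the test.

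**Figure D2:**
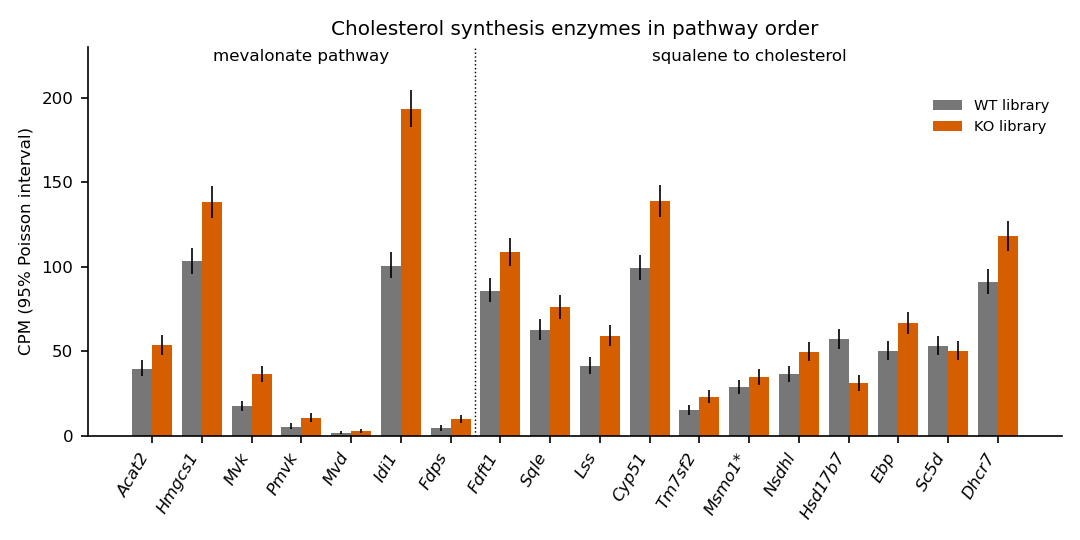
Level in CPM of the cholesterol synthesis enzymes in pathway order in the WT (grey) and KO (orange) library, with exact Poisson 95% intervals that cover counting error only. *Msmo1* is marked because it is listed under its older symbol *Sc4mol*. *Idi1* shows the widest gap, 101 against 193 CPM, and *Hsd17b7* is the one enzyme that fell, from 57.0 to 30.9 CPM.

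From squalene to cholesterol, 8 of the 10 tested genes rose (80.0%, against 21.4% of all genes) and 1 fell (10.0%, against 22.4%). The median log2 fold change was 0.39. The summed level was 591 CPM in WT and 720 CPM in KO (log2 ratio 0.28, 95% interval from 0.22 to 0.35). No gene of this group was called at 2-fold. The interval of this summed ratio lies below that of the mevalonate genes, 0.62 to 0.79.

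*Fdft1*, which makes squalene, had 570 reads in WT and 672 in KO, and *Sqle*, which oxidises it, had 416 and 470. *Lss*, which closes the ring to lanosterol, had 275 and 366 reads, giving a log2 fold change of 0.52 (95% interval 0.29 to 0.75) that became 0.88 with the length correction. The lanosterol demethylase *Cyp51* had 660 reads in WT (99.3 CPM) and 858 in KO (139 CPM), a log2 fold change of 0.48 (95% interval 0.34 to 0.63) with an adjusted p of 7.86e-10 in the exact binomial test. Before the length correction each of these enzymes rose by less than *Idi1* did, and their intervals overlap one another. With the correction *Lss*, at 0.88, was close to *Idi1*, at 0.91.

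*Tm7sf2*, a sterol reductase that acts after *Cyp51*, rose from 99 to 142 reads, with a log2 fold change of 0.62 (95% interval 0.25 to 1.01). Its exons share 532 bases on the same strand with *Vps51*, which had 433 reads in WT and 438 in KO. *Lbr*, which carries the same reductase activity and also anchors the nuclear lamina, is not a member and had 2160 and 2729 reads (log2 fold change 0.44). *Msmo1*, the next enzyme, is listed only as *Sc4mol*, with 190 and 214 reads, giving a log2 fold change of 0.28 (95% interval -0.01 to 0.57), which did not pass the test. *Fdft1* shares 774 exon bases with *Ctsb* and *Cyp51* shares 166 with *Akap9*, each on the opposite strand, and whether the counting used strand is not stated.

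The C4 demethylation of sterols is done by *Nsdhl* and *Hsd17b7* one after the other, and these neighbours moved in opposite directions. *Nsdhl* rose from 241 reads to 306, a log2 fold change of 0.45 (95% interval 0.20 to 0.70). *Hsd17b7* fell from 379 reads in WT (57.0 CPM) to 191 in KO (30.9 CPM), a log2 fold change of -0.88 (95% interval -1.14 to -0.63) with an adjusted p of 1.94e-11 in the exact binomial test. It had the lowest log2 fold change of the 40 genes and stayed short of the 2-fold line.

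The last steps of the pathway rose a little, with 1 exception. *Ebp*, a sterol isomerase, had 333 and 411 reads (log2 fold change 0.41, or 0.22 and no longer past the test with the length correction), and *Dhcr7*, which reduces 7-dehydrocholesterol to cholesterol, had 606 and 729. *Sc5d*, the desaturase between them, had 353 and 309 reads, and its log2 fold change of -0.09 had an interval from -0.31 to 0.14.

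The SREBP factors and their regulators differed little between the libraries before correction for transcript length, with a median log2 fold change of 0.07 and a summed level of 1165 CPM in WT and 1248 CPM in KO. *Srebf2*, which encodes the SREBP mainly tied to sterol genes, had 4727 reads in WT and 4708 in KO, 711 and 761 CPM. *Srebf1*, which encodes the forms mainly tied to fatty acid genes, had 2365 and 2435 reads, 356 and 394 CPM. Both passed the test, by only 0.10 (95% interval 0.04 to 0.16) and 0.15 (0.06 to 0.23) on the log2 scale. The length correction moved these to 0.32 and 0.26, and the GC correction moved *Srebf2* to 0.02.

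Within each library the balance of the pair was the same, *Srebf1* giving 33.4% of their reads in WT (Wilson 95% interval 32.3% to 34.5%) and 34.1% in KO (33.0% to 35.2%). *Scap*, the escort, had 41 and 40 reads, *Insig1* had 597 and 518, and *Insig2* had 19 and 17, and none of these passed the test. The interval of *Insig1*, itself a known SREBP target, ran from -0.27 to 0.07, below that of every mevalonate gene but *Mvd*. Of 8 other genes of SREBP processing and sterol-driven degradation, 0 rose, and *Mbtps2*, a protease that cuts SREBP in the Golgi, and *Erlin2* fell (2 of the 8, near the 22.4% of all genes that fell), with log2 fold changes of -0.34 and -0.38. With the length correction these became -0.15 and -0.19 and no longer passed the test. *Mbtps1*, the first of the proteases, had 28 and 13 reads and did not pass the test (log2 fold change -0.97, 95% interval from -2.08 to -0.01). For these regulators the counts show transcripts only, not the cleaved proteins.

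In fatty acid synthesis the desaturases *Scd1*, *Fads1* and *Fads2* and the elongases *Elovl5* and *Elovl6* rose, while the highly expressed *Fasn* and the desaturase *Scd2* fell slightly, though not after correction for transcript length. Of 11 genes, 5 rose (45.45%, against 21.4% of all genes) and 2 fell (18.2%, near the 22.4% of all genes). The group had a median log2 fold change of 0.11. Its summed level was 2537 CPM in WT and 2354 CPM in KO (log2 ratio -0.11, 95% interval from -0.14 to -0.08). The median and the sum differ in sign because *Fasn* and *Scd2* hold most of the reads.

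*Acly* and *Acss2*, which make acetyl-CoA from citrate and from acetate, had 71 and 154 reads in WT and 65 and 155 in KO, with intervals that include 0. *Acaca*, which makes malonyl-CoA, had 1114 reads in WT and 968 in KO, a log2 fold change of -0.10 (95% interval -0.22 to 0.03). *Fasn*, the synthase that builds palmitate, had 6555 reads in WT (986 CPM) and 5154 in KO (833 CPM), a log2 fold change of -0.24 (95% interval -0.30 to -0.19) that became 0.24 with the length correction. None of these enzymes of the first steps rose before the length correction.

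The stearoyl-CoA desaturases put the first double bond into saturated fatty acids, and *Scd1* and *Scd2* moved apart. *Scd3*, with 0 and 1 reads, and *Scd4*, with 4 and 6, were too low to compare with them. *Scd2*, with the highest level of all members per length (188 RPKM, CPM per kilobase of transcript, in WT and 157 in KO), had 6810 reads in WT (1024 CPM) and 5282 in KO (854 CPM), a log2 fold change of -0.26 that became -0.01 with the length correction. *Scd1* had 403 reads in WT (60.6 CPM) and 592 in KO (95.7 CPM), a log2 fold change of 0.66 (95% interval 0.47 to 0.85) with an adjusted p of 1.08e-11 in the exact binomial test. The *Scd1* share of the reads of both was 5.59% in WT (Wilson 95% interval 5.08% to 6.14%) and 10.1% in KO (9.33% to 10.9%). These genes are near neighbours and close in sequence, so reads that fit both may have been lost in counting.

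*Fads1* and *Fads2*, the desaturases that make polyunsaturated fatty acids and lie side by side on chromosome 19, rose by the same amount. *Fads1* had 362 and 527 reads, giving a log2 fold change of 0.65 (95% interval 0.45 to 0.84), and *Fads2* had 299 and 432 reads and one of 0.63 (0.42 to 0.85). *Fads2* gave 45.2% of the reads of the pair in WT (Wilson 95% interval 41.5% to 49.1%) and 45.1% in KO (41.9% to 48.2%).

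*Elovl6*, which lengthens palmitate to stearate, rose from 311 reads to 464, a log2 fold change of 0.68 (95% interval 0.47 to 0.89). *Elovl5*, which lengthens polyunsaturated chains, rose from 777 to 903, by 0.32 on the log2 scale. *Elovl1*, for very long chains, had 15 reads in each library, and it shares 53 exon bases on the opposite strand with *Cdc20*, which had 864 reads in WT and 1990 in KO. Of 21 other genes of fatty acid synthesis and activation, 14 were tested, 5 rose (35.7%, against 21.4% of all genes) and 1 fell (7.14%, against 22.4%). The risers include *Tecr* and *Hacd2*, partners of the ELOVL enzymes in the elongation cycle, with log2 fold changes of 0.90 and 0.51, and *Slc25a1*, the mitochondrial citrate carrier, with 0.43. *Acsl4*, an acyl-CoA synthetase with 26 reads in WT and 10 in KO, was the one that fell (log2 fold change -1.23), and with the length correction it was at -0.99 and did not pass the test.

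**Figure D3:**
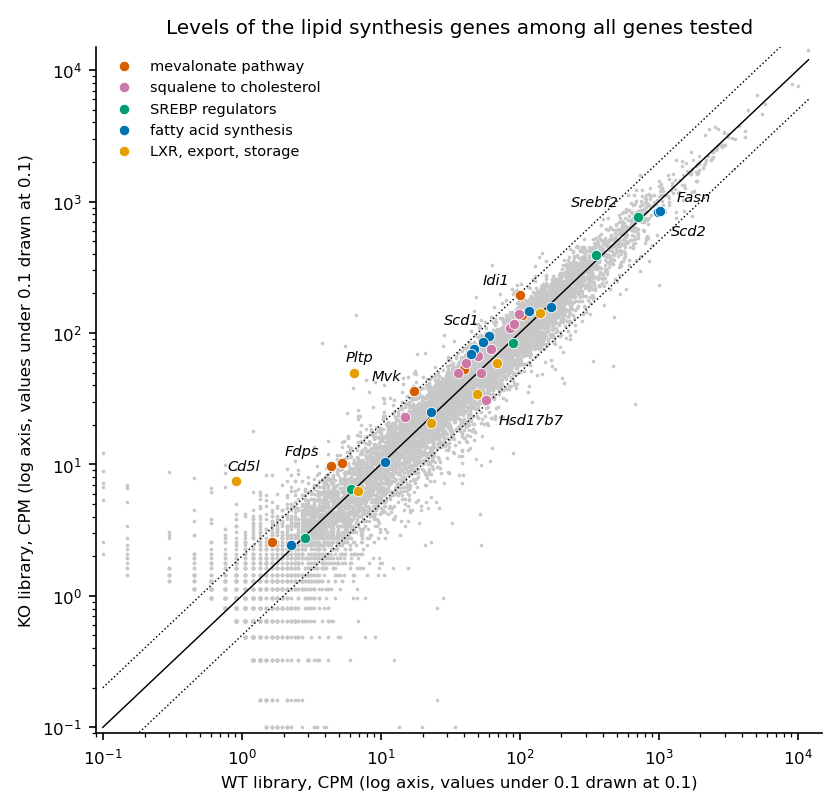
Level of each tested gene in the WT (x axis) and KO (y axis) library in CPM, on log axes, with the lipid genes coloured by role, all other genes in grey and dotted lines at 2-fold. *Pltp* (6.47 and 49.96 CPM) and *Cd5l* (0.902 and 7.44 CPM) stand far above the upper line, and *Fasn*, *Scd2* and *Srebf2* are the most abundant members.

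Among the genes of LXR signalling, export and storage, *Pltp* and *Cd5l* rose several fold, and before correction for transcript length no other gene of the group rose. The list of 9 genes had 7 tested members, with 2 higher (28.6%, against 21.4% of all genes) and 1 lower (14.3%, against 22.4%). These shares are near those of all genes. The median log2 fold change was -0.13, or 0.31 with the length correction. *Pltp*, which encodes the phospholipid transfer protein of plasma lipoproteins, had 43 reads in WT and 309 in KO, a log2 fold change of 2.94 (95% interval 2.49 to 3.45) with an adjusted p of 2.16e-53 in the exact binomial test. *Cd5l* encodes a secreted protein known to restrain lipid synthesis and inflammatory function in Th17 cells. The gene had 6 reads in WT and 46 in KO, a log2 fold change of 2.94 with a wide interval, from 1.81 to 4.56. Both genes are known LXR targets in macrophages. Their rise in these libraries was known when the members were chosen, so it is no independent evidence for the group. The macrophage markers that had reads summed to 4.36 CPM in WT and 4.37 CPM in KO, a log2 ratio of 0.00 with a wide interval (-0.81 to 0.81). Most of these few reads were of *Cd68* (22 in WT and 16 in KO), while *Mrc1* (5 and 8) and *Cd14* (0 and 2) went the other way. *Csf1r*, *Adgre1*, *Lyz2* and *C1qa* gave no value. Which cells gave the *Pltp* and *Cd5l* reads was not tested. *Pltp* shares 495 exon bases on the opposite strand with *Ctsa*, which had 34 and 28 reads.

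The LXR targets *Abca1* and *Abcg1*, which export cholesterol, had similar counts in both libraries. *Abca1* had 154 reads in WT and 128 in KO, a log2 fold change of -0.16 (95% interval -0.51 to 0.19), and *Abcg1* had 939 and 885, one of 0.02 (-0.12 to 0.15). With the length correction *Abcg1* did rise, by 0.31 on the log2 scale (adjusted p of 3.56e-05, exact binomial test). *Mylip*, whose product marks membrane receptors for degradation, had 46 and 39 reads. The intervals of these 3 genes lie below those of *Pltp* and *Cd5l*. Of the receptors, *Nr1h3* had at most 1 read in a library, under the 3 reads taken as the smallest level shown here (0.451 CPM in WT and 0.485 CPM in KO), and *Nr1h2* gave no value.

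*Stard4*, a carrier of cholesterol between membranes and a known SREBP target, fell from 328 reads (49.3 CPM) to 211 (34.1 CPM), a log2 fold change of -0.53 (95% interval -0.79 to -0.28). *Soat1*, which esterifies cholesterol for storage, had 458 reads in WT and 367 in KO, a log2 fold change of -0.21 with an adjusted p of 0.0723 in the exact binomial test. Of 14 other genes of LXR signalling and cholesterol transport, 9 were tested, 2 rose (22.2%, against 21.4% of all genes) and 1 fell (11.1%, against 22.4%). The lysosomal cholesterol carriers differed, *Npc1* falling from 881 reads to 594 (log2 fold change -0.46) and *Npc2* rising from 4222 to 4482 (0.19), and *Lpcat3*, an LXR target that remodels phospholipids, rose by 0.22. With the length correction *Npc1* was at -0.18, still past the test, and *Lpcat3* at 0.11, no longer past it. *Apoe*, of the same list, had only 39 reads in WT and 19 in KO. Its log2 fold change of -0.91 (95% interval -1.81 to -0.11) did not pass the test. With the length correction *Apoe* was at -1.13 and was called lower at 2-fold.

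Ranked by level per length, *Scd2*, *Srebf2*, *Fasn* and *Srebf1* led in both libraries, at 82.7 to 188 RPKM in WT and 82.9 to 157 RPKM in KO. In WT the next were *Elovl5* at 42.0 RPKM, *Insig1* at 33.3 and *Idi1* at 33.2, the last 2 closer to each other than their counting error. In KO *Idi1*, at 63.9 RPKM, stood next after the leading genes and *Insig1* was at 31.1. The lowest tested members in WT were *Cd5l* at 0.443 RPKM, *Mvd* at 0.902 and *Insig2* at 1.06, and in KO *Pltp* reached 22.4 RPKM from 2.91 in WT.

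Fold changes in these libraries fell with the length of the transcript, with a Spearman rho of -0.37 across 10792 genes, which are not independent replicates. The lipid genes span this range from *Pmvk*, with 1194 bases, to *Abca1*, with 10262. After a smooth curve against length was taken off, 25 of the 40 members rose (62.5%, against 20.8% of all genes). The 2 that fell (5.0%, against 17.5%) were *Hsd17b7* and *Stard4*. By the 2-fold rule 3 of the 40 rose (7.5%, against 2.46% of all genes), *Fdps*, *Pltp* and *Cd5l*, since *Mvk* moved to 0.95. By the same rule 0 fell, against 4.32%. The rise of *Pltp* and *Cd5l* was known when the members were chosen, and without them only *Fdps* was called higher. At 1.5-fold 12 rose (30.0%) and 1 fell (2.5%), against 6.5% and 8.22% of all genes. A value above 0 was found for 33 of the 40 (82.5%, against 50.3%) and one below for 7 (17.5%, against 49.7%).

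The median of the mevalonate genes moved from 0.94 to 0.72 and that of the fatty acid genes from 0.11 to 0.26, and that of the LXR, export and storage genes turned from -0.13 to 0.31. The long genes changed most. *Fasn*, with 10050 bases, turned from -0.24 to 0.24, *Acaca* from -0.10 to 0.37, and *Abca1* from -0.16 to 0.33, so no direction can be given for these genes. The other genes whose sign changed were *Sc5d*, *Acly*, *Elovl1* and *Soat1*, all with small values. *Scd2* moved from -0.26 to -0.01 and no longer passed the test (adjusted p of 0.913, exact binomial test). *Hsd17b7* kept a value of -0.72, *Scd1* had 0.85, and *Elovl6* had 0.98.

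**Figure D4:**
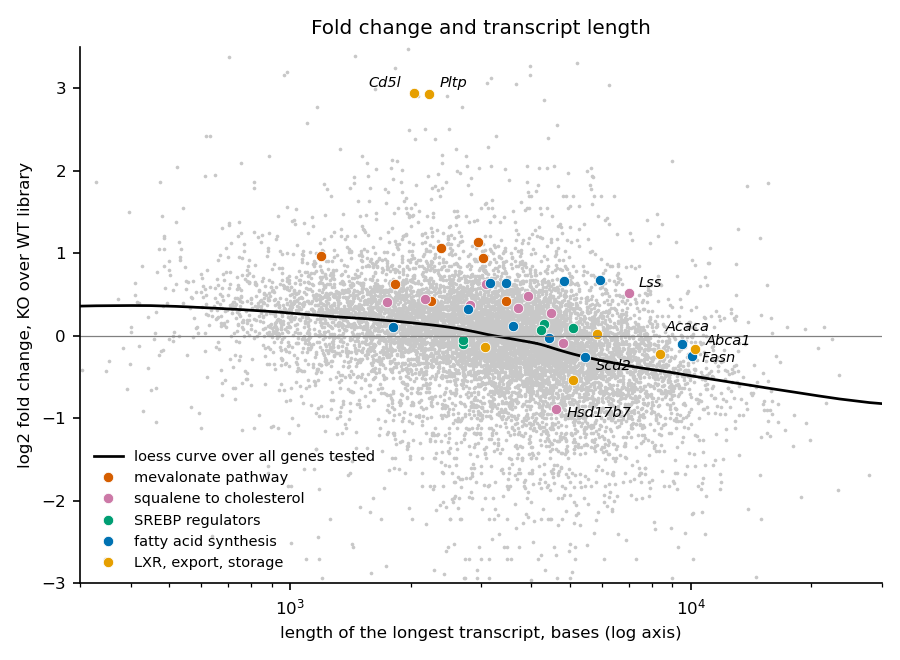
Log2 fold change (KO over WT library) against the length of the longest transcript in bases, on a log axis, for all tested genes (grey) and the lipid genes (coloured by role), with the loess curve over all tested genes. *Fasn*, *Acaca* and *Abca1* lie at the long end above the curve, and *Hsd17b7*, at -0.88, lies below it.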

How the data were processed

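RNA-seq was analysed for 1 WT and 1 KO Th17 library. The 6 ChIP-seq samples were not analysed here. The authors deposited raw read counts by gene, from uniquely assigned reads and not normalized. Per the study's methods, reads were mapped to mm10 with SOAP2. The submitters' processing notes name bcl2fastq, HTSeq, Bowtie and SICER 1.1, with no role. The annotation, the counting mode and the use of strand are not given in the sources used here.

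After division by the library totals (6650066 and 6185108 reads), log2 fold changes were taken with a pseudocount of 0.5 on each count. Genes with 10 or more reads in the sum of both libraries (10881) entered a two-sided exact binomial test with Benjamini-Hochberg adjustment in SciPy 1.17.1, and were called with the study's thresholds, 2-fold and an adjusted p under 0.05. The quasi-likelihood test of edgeR could not be fitted, as 1 library per group leaves none of the residual freedom it needs. For ratios, exact (Clopper-Pearson) 95% intervals, for levels exact Poisson intervals and for shares Wilson intervals cover counting error only. Transcript lengths and GC content are from the longest GENCODE M21 transcript, and promoters from RefSeq. Of the gene names, 12840 matched a symbol, 804 an older symbol and 60 none.

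All 43 members are named by rule, with the other pathway and cell marker genes of lists written for this work, some of which are not reported here. Members, lists and rules were chosen with earlier results of these data known. The calculations were tested on simulated data. Alternatives were TMM and edgeR 4.0.16 with assumed variation of 0.2 and 0.4, DESeq2 1.42.0 size factors, a pseudocount of 5, at least 1 read, a loess curve (statsmodels 0.14.6, span 0.3) against length and a fold of 1.5. A GC curve, *Msmo1* under its older symbol, and leaving out *Pltp* and *Cd5l* were added after seeing the data. R 4.3.3 and Python 3.11.15 were used.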

Additional observations from a re-analysis of the deposited data

How the results depend on the processing

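No paired analysis was possible because there is 1 library per genotype, and no replicate could be left out. Of the 40 tested lipid genes, 4 were called higher (10.0%) and 0 lower. Under edgeR's exact test the number called higher was 2 with an assumed coefficient of variation of 0.2 and 0 with 0.4, as *Mvk* and *Fdps* and then also *Pltp* and *Cd5l* lost the call. Over all 10881 genes tested 280 were called higher (2.57%) and 602 lower (5.53%). These became 65 and 131 with 0.2 and 7 and 9 with 0.4. At a fold of 1.5, 11 lipid genes were called higher (27.5%) and 1 lower (2.5%). Of all genes 764 (7.02%) and 1248 (11.5%) were. Without *Pltp* and *Cd5l*, an alternative chosen after seeing the data, 2 of the remaining lipid genes were called higher, *Mvk* and *Fdps*, against 2.57% of all genes. *Mvk* fell short of 2-fold with the length (0.95) and GC (0.99) corrections, and *Idi1* passed it with the GC correction (1.08). Over the 40 genes, 7 values changed sign with the length correction and 4 with the GC correction, none of them called at 2-fold. TMM and DESeq2 scaling moved the median of all genes by 0.019 on the log2 scale. Depth limits *Mvd*, *Insig2*, *Elovl1* and *Nr1h3*, whose reads are few. The intervals of *Mvd*, *Insig2* and *Elovl1* include a 2-fold change.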
